A study of Mus musculus with 6 samples.

Results

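The proteasome genes were read in sorted pre-granulocyte-macrophage progenitors (PreGMs), early myeloid progenitors of mouse bone marrow. Members were the genes whose symbol begins with Psma, Psmb, Psmc, Psmd, Psme, Psmf or Psmg followed by a digit and that had a probe set annotated to that symbol alone. This gave 50 of the 19937 genes measured, from 56 probe sets. Psmb8, Psmb9, Psmb10, Psme1 and Psme2 were set apart as the 5 interferon-induced members. Psmc3ip, which the symbol pattern also takes, encodes a meiotic recombination factor named for binding Psmc3 and is no proteasome subunit, so it was kept out of the counts of members that differed between the labels, though not of the promoter counts. The other 44 are called constitutive here, although they include Psma8 and Psmb11, known from testis and thymus, and Psme3ip1, which binds an activator and is not a subunit.

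The study compared 3 arrays from female C57BL/6 mice labelled Cebpa flox/flox with 3 from mice labelled Cebpa flox/flox;Mx1Cre, each array from a separate mouse per the design text. Mice of both labels carry floxed Cebpa and were killed 18 days after an injection of pIC, a synthetic double-stranded RNA that induces interferon. By the labels, only the Mx1Cre mice carry the Cre recombinase, driven by the interferon-inducible Mx1 promoter. Effects of Cre and of the deletion cannot be told apart. PreGMs were sorted as Lin-, Sca1-, Kit+ cells lacking CD150, CD41, FcγRII and endoglin. The ages were not given in the sources used here.

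Cebpa ran against the labels. It read 6.93, 6.71 and 6.85 log2 units in the flox/flox arrays and 8.71, 9.31 and 8.98 in the arrays labelled Mx1Cre, a difference of 2.17 ± 0.14 (SE, limma adjusted p = 2.65e-05). Where its probes lie relative to the deleted part was not analysed here, and a probe outside that part would not check the labels. Every direction below therefore follows the labels as deposited and would turn if the labels were exchanged. Of the sort markers, Kit averaged 10.46 and 10.61 and Slamf1, which encodes the excluded CD150, 5.46 and 5.29, both below the lower quartile of all genes' levels (5.63). Of the genes for the excluded surface proteins, Itga2b (CD41) averaged 7.95 and 7.63 and Eng (endoglin) 7.37 and 7.31, above the median of all genes' levels (6.64) under both labels. Fcgr2b rose from 6.74 to 7.16, Fcgr3 fell from 8.14 to 7.09 and Cd34 rose from 10.28 to 11.29 (limma adjusted p 0.041, 0.0097 and 0.000692). Array values correlated across genes at 0.984 to 0.995. The marker counts here are of genes at a limma adjusted p under 0.05, which 2.63% of all genes passed upward and 2.28% downward. Granulocyte and monocyte markers rose in the arrays labelled Mx1Cre for 12 of 12 genes (summed level 12.66 to 12.68 against 13.89 to 14.07, as log2 of the summed linear values). T, NK and innate lymphoid markers fell for 7 of 12 (12.57 to 12.78 against 10.86 to 11.35), and all 12 differences were below 0. Erythroid markers fell for 2 of 7 (12.58 to 13.03 against 12.11 to 12.44) and megakaryocyte markers for 2 of 6 (10.27 to 10.35 against 9.65 to 9.88), and the rest of both lists had differences below 0. Of 7 mast and basophil markers 2 rose and 3 fell (12.27 to 12.33 against 11.86 to 12.10). Of 9 dendritic markers Flt3 alone passed, 4.43-fold higher (summed level of the list 9.71 to 10.27 against 10.74 to 10.97). H2-Aa, H2-Ab1 and Cd74 were higher at an unadjusted limma p of 0.00367, 0.0132 and 0.0237, and 3 of the 9 differences were below 0. Without Mx1Cre replicate 1, 4 of the 9 passed as higher. None of 7 B lymphoid and plasma markers passed with limma (1 at an unadjusted p under 0.05; 8.95 to 9.05 against 8.97 to 9.14). The part of these markers in the results below was not tested, and fewer cells of a type cannot be told apart from less RNA per cell.

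The proteasome degrades proteins tagged with ubiquitin. Its core particle is a barrel of stacked rings of α (Psma) and β (Psmb) subunits, of which β1, β2 and β5, encoded by Psmb6, Psmb7 and Psmb5, carry the proteolytic sites. A regulatory particle of ATPases (Psmc) and non-ATPase subunits (Psmd) unfolds substrates and feeds them in. Interferon induces Psmb9, Psmb10 and Psmb8, which take the places of Psmb6, Psmb7 and Psmb5 in the immunoproteasome, and Psme1 and Psme2, whose products form the PA28αβ activator ring. Blood cells carry immunoproteasomes also without added interferon, and the altered cleavage favours peptides that MHC class I can present.

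Few proteasome transcripts differed between the labels, as did few genes of the whole series. At an adjusted p under 0.05 (limma, Benjamini-Hochberg over all genes), 1 of 49 members rose and 0 fell in the Mx1Cre-labelled arrays. Of all genes 2.63% rose and 2.28% fell, 4.91% together. At an unadjusted p under 0.05, 4 members were higher and 1 lower, against 16.4% of all genes in either direction. The gene that rose was Psmg4, an assembly chaperone. The median difference was 0.02 log2 units over the 44 constitutive members and 0.20 over the 5 interferon-induced members, beside -0.01 over all genes. No member differed by 0.5 log2 units (1.41-fold) or more, a size reached by 4.06% of all genes. For 44 of 49 members (89.8%) the 95% interval of the difference lay within 0.5 log2 units of 0, as it did for 83.3% of all genes. The 5 whose interval reached further were Psma8, Psmb9, Psmd10, Psmg1 and Psmg4. These intervals are limma's for single genes and are not widened for the number of genes. Of the 49 members, 45 lay above the upper quartile of all genes' levels. The median standard error of the members was 0.0945 log2 units, beside 0.102 over all genes. The part of level in these shares was not tested. The arrays of the labels separated without overlap for 7 members that were higher and 3 that were lower, 10 of 49 in all; among all genes the shares were 10.5% and 11.0%, 21.6% together.

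**Figure D1:**
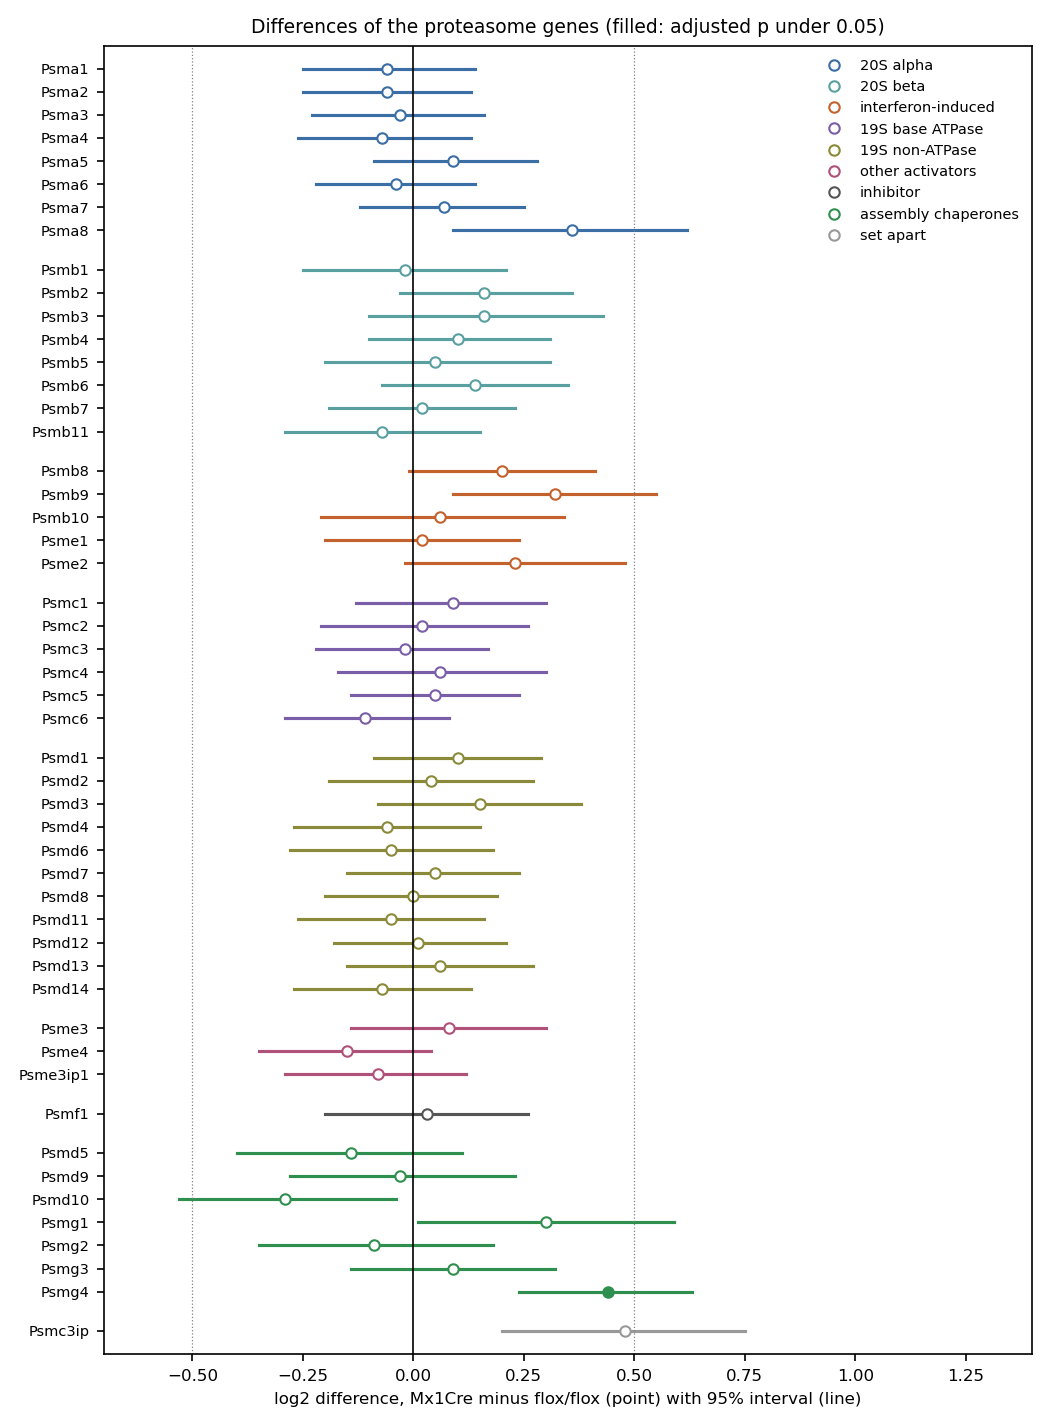
Log2 difference between the arrays labelled Mx1Cre and flox/flox for each of the 50 genes, with its 95% interval, coloured by structural group; dotted lines mark 0.5 log2 units either way. Psmg4 alone is filled (adjusted p under 0.05), and 44 of the 49 members other than Psmc3ip have intervals inside the dotted lines.

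No interferon-induced member passed in either direction, beside 4.91% of all genes, a share at which a group of 5 can hold none. All 5 differences were above 0, from 0.02 to 0.32 log2 units, and 0 of 5 passed with limma. Of the 44 constitutive members 24 had differences above 0, and of all 19937 genes 9294. Without flox/flox replicate 1 those of Psme1 and Psmb10 became -0.03 and -0.01, and without Mx1Cre replicate 2 that of Psme1 became -0.02. At an unadjusted p under 0.05, Psmb9 alone passed in the main limma fit. The count was 3 of 5 with a replicate term, with cyclic loess scaling and without Mx1Cre replicate 1. It was also 3 with an intensity trend and robust prior, 2 without flox/flox replicate 2 and 1 in the other alternatives. Psmb9, the inducible β1 subunit, read 11.58, 11.50 and 11.77 in the flox/flox arrays and 11.81, 12.00 and 12.00 in the arrays labelled Mx1Cre. The groups did not overlap, though flox/flox replicate 3 and Mx1Cre replicate 1 lay close. The difference was 0.32 ± 0.10 log2 units (SE, 95% interval 0.09 to 0.55, limma adjusted p = 0.131), and it passed with an intensity trend and robust prior in the variance model (adjusted p = 0.0438, with 0.0438 to 0.443 across all alternatives).

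Psmb8, the inducible β5 subunit, read 10.61, 10.74 and 10.74 in the flox/flox arrays and 10.80, 11.01 and 10.88 in those labelled Mx1Cre. Here too the groups did not overlap, at 0.20 ± 0.09 log2 units (SE, 95% interval -0.01 to 0.41, limma adjusted p = 0.321). Psme2, the PA28β chain, read 9.38, 9.66 and 9.63 against 9.62, 9.89 and 9.86. Its groups overlapped because Mx1Cre replicate 1 lay below 2 of the 3 flox/flox arrays (0.23 ± 0.11, SE, limma adjusted p = 0.345).

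Psmb10, the inducible β2 subunit, read 8.86, 9.23 and 8.95 against 8.89, 9.18 and 9.17. Psme1, the PA28α chain, read 11.66, 11.90 and 11.72 against 11.68, 11.87 and 11.80. In both genes the groups overlapped, and the differences were 0.06 (95% interval -0.21 to 0.34) and 0.02 (-0.20 to 0.24). PA28 works as a mixed ring of both chains, so Psme1 and Psme2 are partners in one complex. The lowest bound among the 5 intervals was -0.21, that of Psmb10.

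The 3 constitutive catalytic subunits were close between the labels. Psmb5 (β5) read 10.90, 11.06 and 10.95 in the flox/flox arrays and 10.82, 11.25 and 11 in those labelled Mx1Cre, so that the latter held both the lowest and the highest value. Psmb6 (β1) read 11.06, 11.23 and 11.23 against 11.21, 11.40 and 11.33. Psmb7 (β2) read 11.08, 11.32 and 11.23 against 11.17, 11.29 and 11.22. All 3 overlapped. The differences were 0.05 for Psmb5, 0.14 for Psmb6 and 0.02 for Psmb7 (adjusted p 0.903, 0.552 and 0.962 from limma).

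Whether an inducible subunit shifted against the one it replaces was asked within each array, 3 pairs in all. Psmb8 minus Psmb5 changed by 0.15 log2 units between the labels (exact two-sided permutation p = 0.2). Psmb9 minus Psmb6 changed by 0.18 (exact p = 0.1, the smallest that 3 against 3 arrays allow). Psmb10 minus Psmb7 changed by 0.04 (exact p = 0.8). Adjusted over the 3 pairs these became 0.3, 0.3 and 0.8 (exact tests), and a design of this size cannot pass the threshold. The within-array differences of Psmb9 and Psmb6 were 0.52, 0.27 and 0.54 in the flox/flox arrays and 0.60, 0.60 and 0.67 in those labelled Mx1Cre. These did not overlap, and flox/flox replicate 2 alone held the low value; without it the change was 0.10.

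**Figure D2:**
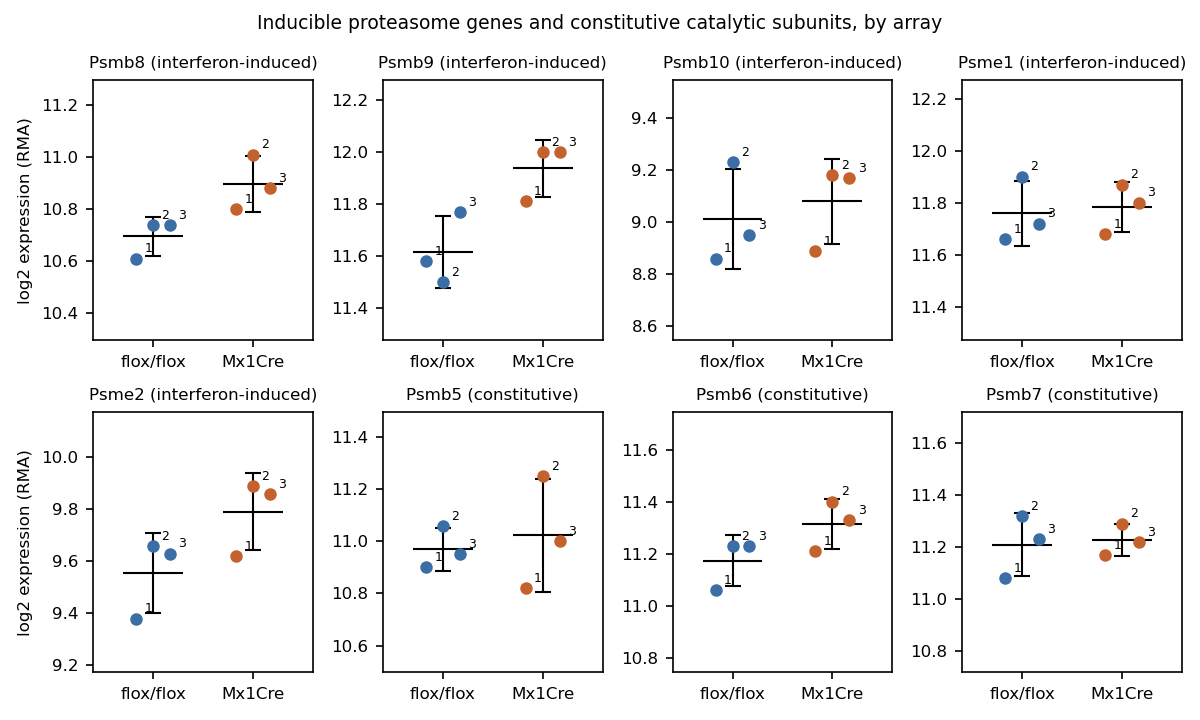
Log2 expression of the 5 interferon-induced genes and of Psmb5, Psmb6 and Psmb7 in each array (points, numbered by replicate), with the mean (long bar) and SD (error bar) of each label; every panel spans 1 log2 unit. The labels separate for Psmb8 and Psmb9 and overlap for the other 6 genes.

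The promoters of 42 of the 50 genes were found in the RefSeq promoter table (GRCm38.p6), which holds 250 bases before and 50 after each start. Psma8, Psmb1, Psmb2, Psmb7, Psmc3, Psmd3, Psmd7 and Psmg2 were not matched. Both strands were searched for the interferon-stimulated response element (GAAA, any 2 bases, GAAA), the γ-activated sequence TTCNNNGAA, the antioxidant response element core TGACNNNGC and the CCAAT box. In the members no match of one pattern overlapped a match of another. The interferon-stimulated element was found at 5 of 42 genes (Psmb3, Psmd4, Psmd9, Psme1 and Psmg4) and in 3.44% of all 32851 promoter windows. The γ-activated sequence was found at Psmb8, Psmd2 and Psmg1, and in 8.3% of all windows. The antioxidant core, the type of site that NFE2L1 (a factor that raises proteasome genes when proteasome activity falls short) binds, was found at 6 of 42 genes, Psmb5 and Psmb6 among them, and in 12.4% of all windows. CCAAT was found at 16 of 42 genes (38.1%) and in 37.4% of all windows. A match describes the letters only. The promoters below run from 150 bases before the start to 30 after it. They are those of the member that rose, of the interferon-induced members with a match and of Psmb5 and Psmb6. They are shown so that the inducible and constitutive genes can be compared. Capitals mark the interferon-stimulated element in Psmg4 and Psme1 (in Psme1 on the opposite strand), the γ-activated sequence in Psmb8, the CCAAT box on the opposite strand in Psmb9 and the antioxidant core in Psmb5 and Psmb6.
Psmg4, chr13:34162814-34162993 (+ strand): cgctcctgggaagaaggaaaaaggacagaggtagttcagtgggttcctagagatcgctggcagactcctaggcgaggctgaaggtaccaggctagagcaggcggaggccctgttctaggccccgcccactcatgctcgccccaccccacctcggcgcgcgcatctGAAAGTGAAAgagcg
Psmb8, chr17:34198045-34198224 (+ strand): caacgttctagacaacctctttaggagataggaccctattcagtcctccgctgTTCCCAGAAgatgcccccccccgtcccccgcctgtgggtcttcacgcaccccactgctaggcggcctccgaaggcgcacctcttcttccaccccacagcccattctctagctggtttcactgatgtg
Psmb9, chr17:34187301-34187480 (- strand): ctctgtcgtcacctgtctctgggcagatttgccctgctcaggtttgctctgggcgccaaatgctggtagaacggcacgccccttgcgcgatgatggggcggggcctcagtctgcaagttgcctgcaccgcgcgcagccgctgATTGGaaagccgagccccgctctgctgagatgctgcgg
Psme1, chr14:55578344-55578523 (+ strand): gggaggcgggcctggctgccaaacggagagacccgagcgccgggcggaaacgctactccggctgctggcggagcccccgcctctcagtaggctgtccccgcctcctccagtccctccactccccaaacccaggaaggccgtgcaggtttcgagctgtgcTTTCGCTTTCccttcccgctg
Psmb5, chr14:54617966-54618145 (- strand): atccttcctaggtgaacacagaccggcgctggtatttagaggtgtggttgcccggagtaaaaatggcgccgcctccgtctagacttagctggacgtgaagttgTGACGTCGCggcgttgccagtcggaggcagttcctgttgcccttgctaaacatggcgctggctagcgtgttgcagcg
Psmb6, chr11:70525207-70525386 (+ strand): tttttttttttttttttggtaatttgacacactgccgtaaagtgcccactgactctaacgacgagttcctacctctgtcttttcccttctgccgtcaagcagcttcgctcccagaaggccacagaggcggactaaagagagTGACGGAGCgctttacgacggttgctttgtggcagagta
The match in Psmg4 lay 16 to 25 bases into the transcript and that in Psme1 10 to 19. Counted from the start, it lay at -97 to -89 in Psmb8, at -47 to -39 in Psmb5 and at -9 to -1 in Psmb6. Psmb9 and Tap1, which encodes a chain of the peptide transporter of the class I pathway, point away from each other on chromosome 17 with starts 226 bases apart. Tap1 differed by 0.04 log2 units (95% interval -0.18 to 0.26), beside 0.32 for Psmb9.

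No α ring gene passed, beside 4.91% of all genes, and Psma8 alone differed by more than 0.09 log2 units. Psma1 to Psma7, which build the outer rings and the gate of the core, differed by -0.07 to 0.09 log2 units and none passed. Psma4 was the lowest of them, reading 10.94, 11.12 and 10.96 in the flox/flox arrays and 10.90, 10.96 and 10.97 in those labelled Mx1Cre. Psma8, a testis α subunit close in sequence to Psma7, read 7.34, 7.23 and 7.39 against 7.41, 7.85 and 7.77. Its groups did not overlap, though only narrowly, with Mx1Cre replicate 1 next to the flox/flox arrays. The difference was 0.36 ± 0.12 log2 units (SE, limma adjusted p = 0.147), and it passed without Mx1Cre replicate 1 (0.49, adjusted p = 0.0254, with 0.0254 to 0.555 across all alternatives). Whether its probes also read Psma7 was not tested; Psma7 itself differed by 0.07.

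The constitutive β ring genes other than Psmb5, Psmb6 and Psmb7 were likewise close between the labels. Psmb3 and Psmb2, structural β subunits, stood highest among the constitutive β genes, each with a difference of 0.16 log2 units. For Psmb3 this was the brighter of 2 probe sets, and the other differed by 0.29. Psmb3 read 10.38, 10.71 and 10.69 against 10.59, 10.91 and 10.77, and its groups overlapped. Psmb2 read 10.31, 10.48 and 10.47 against 10.56, 10.62 and 10.57, without overlap (limma adjusted p = 0.42). Psmb1 and Psmb4 differed by -0.02 and 0.10. The lowest, Psmb11 at -0.07, the thymic catalytic subunit, read 6.36, 6.18 and 6.30 against 6.31, 6.07 and 6.26, under the median level of all genes (6.64) in every array.

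No gene of the regulatory particle passed, beside 4.91% of all genes, and a group this small can hold none at that share. The 6 ATPases of the base, which unfold the substrate, differed by -0.11 to 0.09 log2 units. Psmc6, the lowest, read 10.74, 10.79 and 10.68 in the flox/flox arrays and 10.64, 10.61 and 10.65 in those labelled Mx1Cre, without overlap (-0.11 ± 0.083, SE, limma adjusted p = 0.625). Psmc1, the highest, read 11.10, 11.05 and 11.14 against 11.03, 11.32 and 11.21, with the Mx1Cre arrays on both sides. Of 11 non-ATPase subunits 0 passed (limma, also at an unadjusted p under 0.05, which 16.4% of all genes had). The differences of these subunits ran from -0.07 to 0.15. They include the ubiquitin receptor gene Psmd4 (-0.06), the scaffold genes Psmd1 and Psmd2 (0.10 and 0.04) and Psmd14, the deubiquitinase of the lid (-0.07). Psmd14 read 11.07, 11.18 and 11.07 against 11.10, 10.93 and 11.06, and Psmd3, a lid subunit, 7.68, 7.53 and 7.63 against 7.65, 7.95 and 7.70. In both genes the groups overlapped. Every interval of these 6 and 11 genes lay within 0.5 log2 units of 0.

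The assembly chaperones, which help build the particles and leave them, held the member that rose. Psmg4 works with Psmg3 in building the α ring. It read 8.61, 8.68 and 8.68 in the flox/flox arrays and 9, 9.11 and 9.18 in those labelled Mx1Cre. The gap between the groups was wider than the spread within either, and the difference was 0.44 ± 0.088 log2 units (SE, 1.35-fold, 95% interval 0.24 to 0.63, limma adjusted p = 0.0204). The call was lost without flox/flox replicate 1 (0.41, adjusted p = 0.0784), flox/flox replicate 3 (0.45, 0.0631), Mx1Cre replicate 2 (0.43, 0.0605) or Mx1Cre replicate 3 (0.40, 0.0974), while the difference stayed between 0.40 and 0.49 in each refit without 1 array. Over all alternatives the adjusted p ran from 0.012 to 0.298. Its partner Psmg3 differed by 0.09 (7.88, 8.18 and 8.09 against 8.05, 8.22 and 8.15, limma adjusted p = 0.788). The other α ring pair split, Psmg1 at 0.30 and Psmg2 at -0.09. Psmg1 read 9.67, 10.09 and 10.05 against 10.10, 10.41 and 10.21, apart by a narrow margin (limma adjusted p = 0.277).

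Psmd10, a chaperone of the regulatory particle also known as the oncoprotein gankyrin, had the lowest difference of all members. It read 10.82, 10.90 and 10.92 in the flox/flox arrays and 10.39, 10.79 and 10.59 in those labelled Mx1Cre, with no overlap. The difference was -0.29 ± 0.11 log2 units (SE, 95% interval -0.53 to -0.04) and did not pass (limma adjusted p = 0.211). The other chaperones of that particle, Psmd5 and Psmd9, differed by -0.14 and -0.03. Among the remaining activators, Psme4, which encodes the PA200 activator, read 9.59, 9.55 and 9.46 against 9.46, 9.31 and 9.37, a difference of -0.15 (limma adjusted p = 0.465) whose groups met at 9.46 and parted only beyond that rounding. Psme3, the nuclear PA28γ, read 10.08, 9.89 and 10.18 against 10.18, 10.08 and 10.13, and Psme3ip1, which binds PA28γ, differed by -0.08. Psmf1, which encodes an inhibitor of the core, differed by 0.03.

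Psmc3ip, outside the proteasome, stood next to the threshold. It read 8.44, 8.75 and 8.90 in the flox/flox arrays and 9.05, 9.23 and 9.24 in those labelled Mx1Cre, a difference of 0.48 ± 0.12 log2 units (SE, limma adjusted p = 0.0571). It passed under 4 of 14 alternatives, among them cyclic loess, a filter on dim genes and a trend and robust prior (limma adjusted p 0.0395, 0.0442 and 0.0425), and across all alternatives its adjusted p ran from 0.024 to 0.478.

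Related genes gave the setting. Beside the counts here and below, 2.63% of all genes rose, 2.28% fell and 16.4% had an unadjusted limma p under 0.05. Of 24 measured proteasome partners without a Psm symbol, 0 rose and 1 fell, with a median difference of 0.01 log2 units. Zfand5, a ubiquitin-binding protein that stimulates the proteasome, was the one that fell, 1.37-fold (10.39 to 9.94, limma adjusted p = 0.0332). Leaving out any 1 array other than Mx1Cre replicate 1 left 0 of these partners past the limma threshold. Pomp, which escorts β subunits into the core, differed by 0.10 and Nfe2l1, the factor named above, by 0.03. Of 8 genes of ubiquitin activating and conjugating enzymes 0 passed (limma, also at an unadjusted p under 0.05). Of 15 class I antigen processing genes and regulators 1 rose and 0 fell. That gene was Irf8, which is also on the granulocyte and monocyte list (3.37-fold, limma adjusted p = 7.6e-06). Without passing, B2m, the class I light chain, differed by -0.08, and Irf1 and Nlrc5, activators of class I and immunoproteasome genes, by 0.02 and -0.06.

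Calls on the interferon response list were mostly in the lower direction. Of its 23 measured genes, 5 fell and 1 rose, with a median of -0.27 log2 units, beside 0 of 5 and 0.20 for the interferon-induced proteasome members. At an unadjusted limma p under 0.05, 11 of the 23 were lower and 1 higher. Rtp4 (receptor transporter protein 4) fell 2.79-fold and Usp18, which restrains interferon receptor signalling, 2.30-fold (limma adjusted p 0.00408 and 0.00229). Ifit1, an antiviral RNA-binding protein, fell 1.81-fold and Ddx58, the RNA sensor RIG-I, 1.74-fold (limma adjusted p 0.0214 and 0.0093). Irf7 fell 1.37-fold, and Gbp3, a guanylate-binding protein, rose 2.93-fold (0.0148 and 0.000116). The summed level of the 5 proteasome members was 13.13 to 13.27 in the flox/flox arrays and 13.27 to 13.48 in those labelled Mx1Cre. The summed level of the interferon response list was 12.41 to 12.51 against 11.76 to 12.30. Without Mx1Cre replicate 1 the median of the list was -0.17, with 5 genes lower. The difference between the lists was not tested.

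Of 24 cell cycle genes 5 rose and 0 fell, with a median of 0.43 log2 units. At an unadjusted limma p under 0.05, 16 of the 24 were higher and 0 lower. Ccnd1 (cyclin D1) rose 2.13-fold, Aurkb, a mitotic kinase, 1.78-fold and Cdc6 and Rrm1, of DNA replication and nucleotide supply, 1.57-fold and 1.42-fold (limma adjusted p 0.00085, 0.0261, 0.0394 and 0.0295). The summed level of the list was 14.44, 14.76 and 14.73 in the flox/flox arrays and 14.93, 14.93 and 14.81 in those labelled Mx1Cre, with flox/flox replicate 1 well below the rest. Without that array the median was 0.26 and 2 genes rose. The number that rose was also 2 without Mx1Cre replicate 1, 3 without flox/flox replicate 3 and 1 without Mx1Cre replicate 2 or 3. The constitutive proteasome genes had a summed level of 16.12 to 16.23 in the flox/flox arrays and 16.15 to 16.25 in those labelled Mx1Cre, so that the groups overlapped along nearly their whole range.

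**Figure D3:**
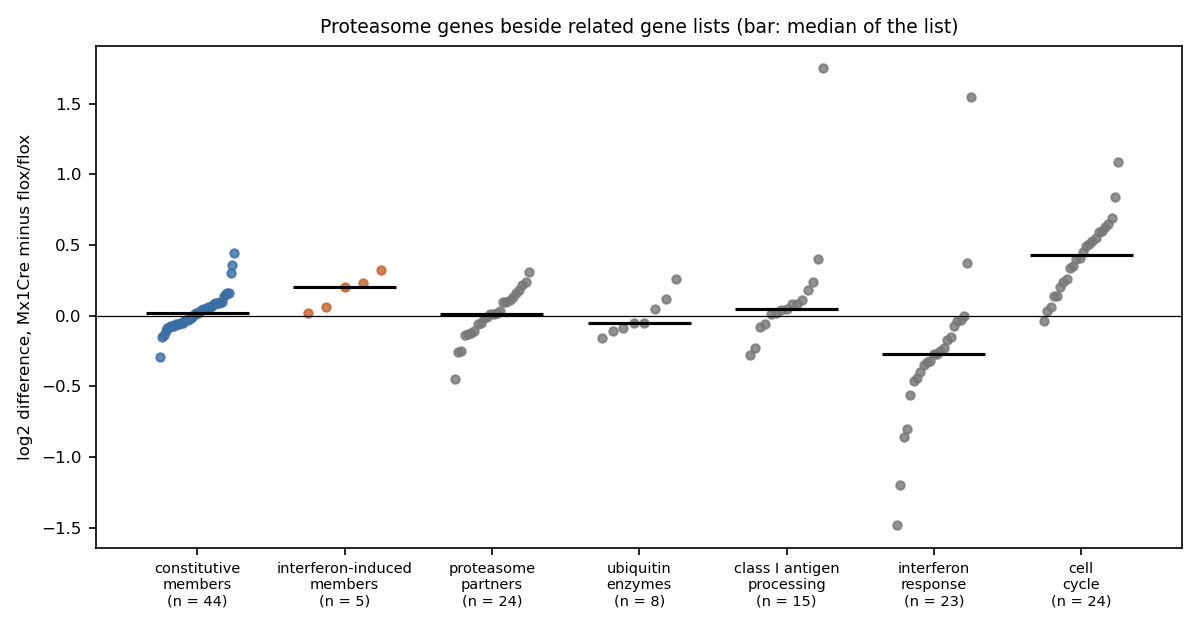
Log2 difference between the arrays labelled Mx1Cre and flox/flox for each gene (points, sorted within a list) of the proteasome members and of 5 related lists, with the median as a bar. The constitutive members cluster about 0 (median 0.02), while the interferon response list has a median of -0.27 and the cell cycle list one of 0.43.

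Within a label, most members shared the same low array. Flox/flox replicate 1 held the lowest value of its label for 34 of 49 members and Mx1Cre replicate 1 for 37 of 49. Their median deviations from the mean of the label were -0.07 and -0.09 log2 units. Flox/flox replicate 2 and Mx1Cre replicate 2 held the highest value of their label for 27 and 33 members. This was not confined to proteasome genes: of the 4984 genes above the upper quartile of levels (8.07), 49.3% were lowest in flox/flox replicate 1 and 62.5% in Mx1Cre replicate 1, against 69.4% and 75.5% of members. Of the 49 members, 45 lay above that quartile. Over all genes the shares were 33.0% and 37.3%. The median standard error of a constitutive member was 0.0943 log2 units and the median size of its difference 0.0664.

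**Figure D4:**
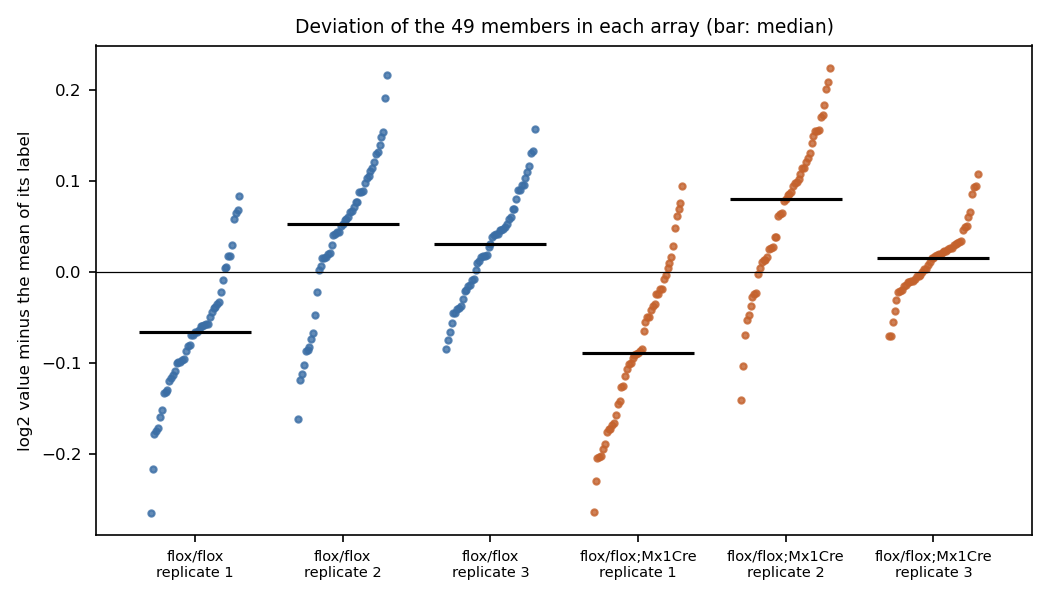
Log2 value of each of the 49 members minus the mean of its label, by array (points, sorted), with the median as a bar. Replicate 1 of each label lies low (medians -0.07 and -0.09) and replicate 2 high (0.05 and 0.08).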

How the data were processed

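Per the submitters' processing notes, the authors made the deposited log2 expression values with RMA and the affy software; the sources used here give no versions. RMA corrects background, quantile normalizes and summarises probes on the log2 scale, which understates folds of dim genes. Per the labels' protocols, a whole-transcriptome kit amplified the RNA. Of 34760 probe sets, 21640 have 1 symbol, 1321 several and 11799 none in the platform annotation. The brightest probe set stood for a gene. Limma 3.58.1 (R 4.3.3; lmFit, eBayes) was fitted over all 19937 genes with Benjamini-Hochberg adjustment, after a check on simulated data. No detection call was used, and the 6 arrays limit the precision. Members, lists, tests and motifs were chosen with earlier results of these data known. The named genes were all members, called list genes (up to 4 each way) and fixed regulators; Irf7 was added after its values were seen. Adrm1, also on that list, was not among the gene rows, and 1 listed item is not reported here. Alternatives were a replicate term, each array left out, 2 scalings, a dim-gene filter, mean probe sets, another prior, gene-wise spread, and all probe sets; lists without each array were added after seeing the data. Replicate numbers were taken as names only.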

Additional observations from a re-analysis of the deposited data

How the results depend on the processing

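The 3 arrays a label limit what can be seen, and RMA compresses dim genes. The number of genes called, 979, ran from 538 to 785 without 1 array, was 0 with a gene-wise spread (2124 at an unadjusted p under 0.05) and 244 with all probe sets in the fit. The count of constitutive members that rose, 1, ran from 0 to 2 without 1 array. It was 0 with gene-wise spread and with all probe sets. The cause of these shifts was not tested. With the intensity trend and robust prior, 1 interferon-induced member (Psmb9) rose. With the replicate block, 1089 genes and 1 member passed, and Psmc3ip passed (limma adjusted p = 0.024). Same-numbered arrays correlated in their deviations at 0.188, 0.0515 and 0.174 over all genes and at 0.394, 0.248 and -0.00842 over the members. The sample titles number the arrays without naming pairs, so the numbers were not taken as pairs. Replicate 1 was low and replicate 2 high for most members under both labels. Whether same-numbered arrays were handled together was not tested. The constitutive median ran from -0.02 to 0.05 and the interferon-induced median from 0.14 to 0.25 over the alternatives that give one. Of 700 combinations of a gene (Psmc3ip included) and an alternative, 27 changed direction, all in uncalled genes, and 12 changed a call.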

Other observations

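The 5 members with more than 1 probe set did not always give the same difference between the labels. Psma3 had 3 probe sets with log2 differences of -0.03, -0.10 and -0.19. Psmb3 had a second probe set with a difference of 0.29, against 0.16 for the one used, and Psmd2 one of 0.11 against 0.04. Psma5 and Psmc1 had second probe sets with differences of 0.10 and 0.01, against 0.09 for each one used. None of these probe sets reached an unadjusted p under 0.05 in a limma fit over all probe sets.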
